A study of Mus musculus with 21 samples.

Results

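The collagen chain genes are described here in mouse forelimb buds (FBs) that developed inside whole embryos in culture. Members were all genes with a single-gene feature on the array whose annotated symbol has the form Col, number, a, number, and for each the feature with the highest mean was read. This gave 39 collagen chains of 14860 genes. Of 44 collagen symbols listed from general knowledge, *Col6a4*, *Col6a5*, *Col19a1*, *Col22a1* and *Col28a1* are not analysed here, and *Col19a1* shares its feature with another gene.

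The series holds 21 Affymetrix Mouse Exon 1.0 ST arrays of FBs from Swiss mouse embryos of no stated genotype or sex, from animals that per the study's methods were left untreated. Embryos were taken at E10.5 (E is the embryonic day) and their FBs dissected at once (0 h) or after 1, 3 or 6 h of whole-embryo culture in rotating bottles, and at E12.5 with FBs dissected at 0 h or after 1 or 3 h. Each of the 7 groups had 3 arrays, and whether an array held the FBs of 1 embryo or of several is not given in the sources used here, so p-values measure the spread between these arrays. Values are log2 intensities, so a difference of 1 is a 2-fold change, and a chain was called when its adjusted p was under 0.05 in a limma model of all 14860 genes (Benjamini-Hochberg adjustment, each stated adjusted p below being of this kind). Because probes differ in brightness, levels are compared between groups and not between chains.

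Collagens are trimeric proteins of the extracellular matrix, built from chains that wind into a triple helix. Fibrillar chains assemble into the banded fibrils of dermis, tendon and cartilage, FACIT chains (fibril-associated collagens with interrupted triple helices) bind to the surface of those fibrils, type IV chains form the sheet of basement membranes, type VI chains form beaded microfilaments around cells, and transmembrane collagens span the cell surface. In the limb bud, loose mesenchyme under an ectodermal cover gives rise to cartilage, tendon, dermis and muscle connective tissue, each of which is known for its own set of collagens.

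The tissue label was checked first. *Tbx5*, the transcription factor of the forelimb, lay between 9.86 and 11.35 on all 21 arrays and was not called in culture. Other forelimb genes were, as 3, 1 and 4 of 7 measured fell at 1, 3 and 6 h of E10.5 culture (1.12%, 1.45% and 2.87% of all genes), among them *Hoxd13* and *Lhx2*, which fell by 3.47 and 2.32 at 6 h. Of the hindlimb regulators, *Tbx4* lay between 7.27 and 8.62 and *Pitx1* between 6.17 and 7.69, and since these are other probes no order of levels follows. Array medians ran from 6.00 to 6.60. The lowest belonged to replicate 2 of E10.5 at 3 h (6.00) and replicate 3 of E10.5 at 6 h (6.02), which also gave the lowest values of many collagen chains in their groups. The mean of 9 measured placenta and decidua markers of 19 listed was 5.83 and 5.81 in replicates 2 and 3 of E10.5 at 0 h and 5.78 in replicate 2 of E10.5 at 6 h, against 2.81 to 4.25 on the other 18 arrays. *Prl8a2*, a decidual prolactin, was at 12.67, 12.56 and 12.26 on those 3 arrays and between 3.59 and 10.85 on the others, so the fits were repeated without them. Among the other 18 arrays, the highest marker means were again in E10.5 FBs at 0 and 6 h. They were 4.25 in replicate 3 at 6 h and 3.73 in replicate 1 at 0 h, followed by replicate 1 at 6 h. No array of the other groups exceeded 3.39. The repeated fits thus kept raised marker means at E10.5 0 and 6 h and cannot be read as free of placenta and decidua RNA.

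**Figure D1:**
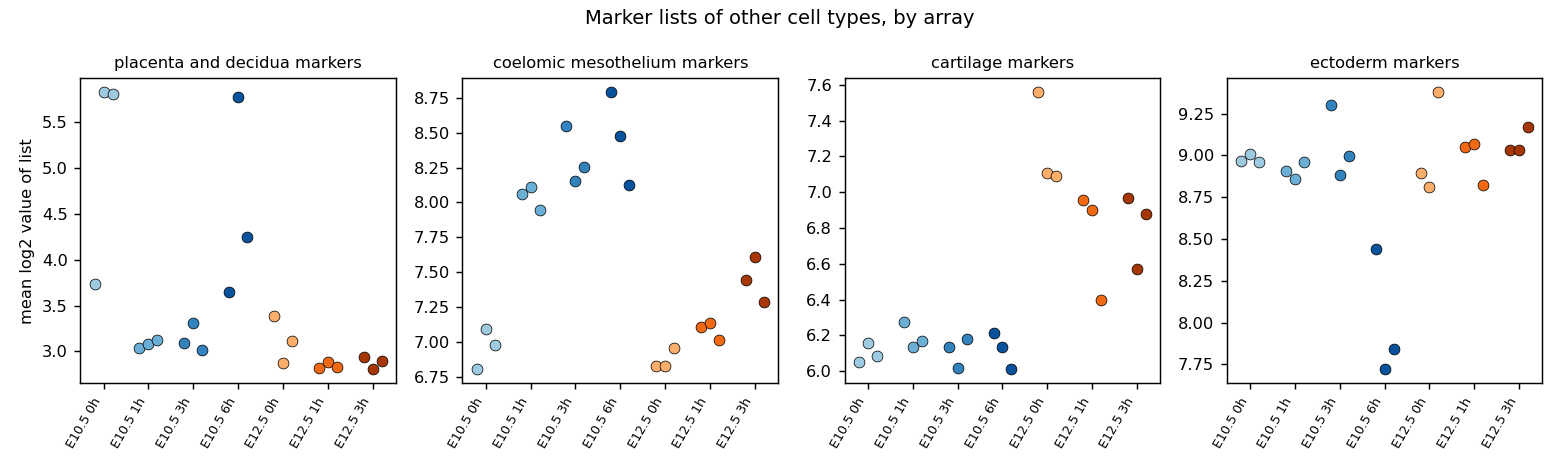
Mean log2 value of the markers of placenta and decidua (9 genes), coelomic mesothelium (14), cartilage (12) and ectoderm (10), with 1 point per array and the 7 groups on the horizontal axis. Placenta and decidua markers stood apart at 5.78 to 5.83 on 3 E10.5 arrays, mesothelial markers were at 6.80 to 7.09 in E10.5 FBs at 0 h and at 7.94 to 8.79 in E10.5 culture, and cartilage markers were higher in E12.5 FBs.

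In the main fit, more chains were called between the stages than in any culture comparison. At 0 h this order depends on the setting, as fewer stage differences were called with placenta and decidua markers as a covariate (given below). At 0 h, 19 of the 39 chains were higher in E12.5 than in E10.5 FBs and 5 were lower, where 19.7% of all genes were higher and 7.39% were lower. At 3 h of culture, 30 chains were higher in E12.5 FBs and 0 lower, against 17.7% and 11.0% of all genes, and at an unadjusted p under 0.05 limma also gave 0 lower. The median difference over the 39 chains was 0.33 at 0 h and 0.92 at 3 h, against 0.03 and 0.05 over all genes. All 19 chains that were higher at 0 h were among the 30 at 3 h, that is 100% of the first list and 63.3% of the second, in arrays that the comparisons do not share. E12.5 arrays had higher medians, by 0.23 at 0 h and 0.25 at 3 h, and with each array shifted to a common median the split at 0 h was 16 higher and 11 lower (59.3% higher in place of 79.2%) and at 3 h 24 higher and 2 lower. Quantile normalization gave 18 higher and 9 lower at 0 h.

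Culture of E10.5 embryos moved few chains and culture of E12.5 embryos moved many. In E10.5 FBs, 3 chains rose and 1 fell after 1 h (2.79% and 1.12% of all genes), 3 and 1 after 3 h (3.23% and 1.45%), and 3 and 3 after 6 h (3.89% and 2.87%). Between 3 and 6 h, 1 chain rose and 0 fell, against 0.659% and 1.62% of all genes, with 4 chains lower at an unadjusted p under 0.05. In E12.5 FBs, 8 chains rose at 1 h and 22 at 3 h, against 1.29% and 9.94% of all genes. There 0 chains fell at either time, against 0.828% and 17.6% of all genes, although *Col2a1* and *Col9a1* at 1 h and *Col9a1* at 3 h were lower at an unadjusted p under 0.05. The E12.5 counts rested in part on single arrays, with 3 to 6 rises at 1 h when 1 array was left out, and 12 at 3 h without replicate 2 of 0 h. The E10.5 counts did too, with 1 to 4 chains called at 1 h, 2 to 8 at 3 h (8 without replicate 2 of 3 h) and 3 to 8 at 6 h. The median change over the 39 chains was 0.21 at 1 h and 0.46 at 3 h in E12.5 FBs, and 0.08, 0.02 and -0.04 at 1, 3 and 6 h in E10.5 FBs, where the median over all genes lay between -0.04 and 0.01. Other scalings moved the split of E10.5 calls. Quantile normalization gave 7 higher and 1 lower at 3 h (87.5% higher in place of 75%), 6 and 3 at 6 h (66.7% in place of 50%), and 1 and 1 from 3 to 6 h, and shifting arrays to a common median gave 5 and 3 at 6 h (62.5%).

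The difference between the stages in their response to culture was tested as an interaction. At 1 h, limma called 0 of the 39 chains in either direction (0.390% and 0.148% of all genes), with 3 higher and 7 lower in E10.5 at an unadjusted p under 0.05. At 3 h, the change was lower in E10.5 than in E12.5 culture for 11 chains and higher for 0, against 4.83% and 9.43% of all genes, with 2 higher at an unadjusted p under 0.05. The 11 chains came from 7 of the 9 structural types. In total 34 chains were called in at least 1 of the 10 comparisons and 5 in none, namely *Col4a3*, *Col4a4*, *Col4a6*, *Col13a1* and *Col20a1*, of which all but *Col20a1* were called lower at E12.5 at 0 h once arrays had a common median.

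**Figure D2:**
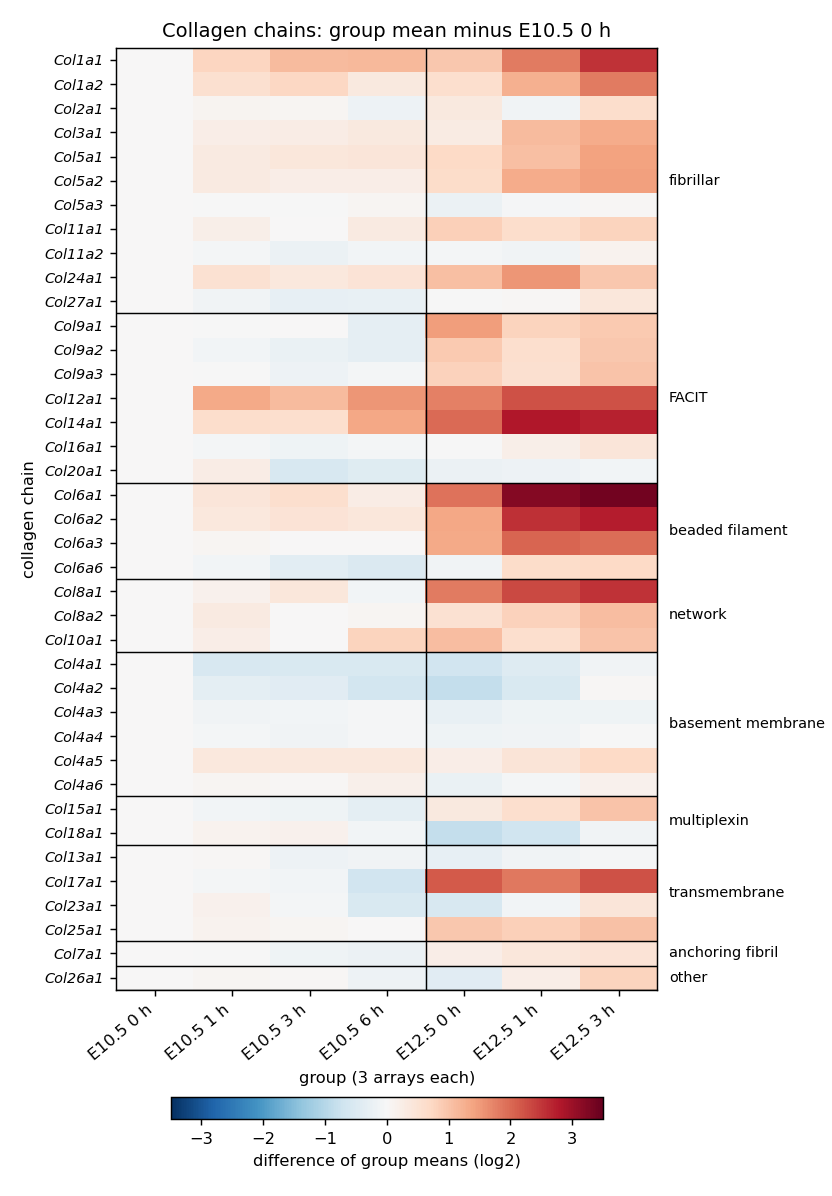
Difference of each group mean from the mean of E10.5 FBs at 0 h (colour, log2) for the 39 collagen chains, grouped by structural type, with the 7 groups of 3 arrays as columns. The largest positive differences stand in the E12.5 columns, for Col6a1, Col14a1, Col6a2, Col8a1, Col1a1, Col17a1, Col12a1 and Col6a3 in that order, while Col4a1, Col4a2 and Col18a1 were lower in E12.5 FBs at 0 h.

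Among the 11 fibrillar chains, type I collagen rose in culture at both stages. *Col1a1* encodes the chain of which each type I trimer holds most, and *Col1a2* its partner, and both are abundant in dermis, tendon and bone. In E10.5 FBs, *Col1a1* was at 8.40, 8.84 and 8.81 at 0 h, 9.49, 9.71 and 9.13 after 1 h, 10.07, 9.24 and 10.05 after 3 h, and 10.07, 9.64 and 9.77 after 6 h. In E12.5 FBs it was at 9.76, 9.46 and 9.66 at 0 h, 10.48, 10.54 and 10.52 after 1 h, and 11.29, 11.21 and 11.11 after 3 h. All cultured arrays of a stage lay above the 0 h arrays of that stage, and the 3 time points of E12.5 did not overlap. The rise in E10.5 FBs was 0.76 ± 0.20 (SE, 1.69-fold, adjusted p = 0.0386) at 1 h, 1.10 (2.14-fold, adjusted p = 0.00363) at 3 h and 1.14 (2.21-fold, adjusted p = 0.00125) at 6 h. In E12.5 FBs it was 0.89 (1.85-fold, adjusted p = 0.0238) at 1 h and 1.58 (2.99-fold, adjusted p = 4.74e-05) at 3 h. The 1 h calls were fragile, as that in E10.5 was lost in 5 of 6 fits that left out 1 array (changes of 0.62 to 0.92) and that in E12.5 in 6 of 6 (0.80 to 0.96). With the placenta and decidua marker mean as a covariate, the E10.5 calls of *Col1a1* at 1 and 3 h were lost and that at 6 h was kept (1.15).

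*Col1a2* moved in the same direction with smaller changes. It was at 9.30, 9.74 and 9.77 in E10.5 FBs at 0 h, 9.86, 10.41 and 10.18 after 1 h, 10.33, 10.18 and 10.44 after 3 h, and 10.22, 9.65 and 9.97 after 6 h. The 6 h arrays overlapped those at 0 h, and the change was called only at 3 h (0.71, 1.64-fold, adjusted p = 0.0138), against 0.55 at 1 h (adjusted p = 0.0583) and 0.35 at 6 h (adjusted p = 0.216). Without replicate 3 of E10.5 at 3 h the 3 h call was lost. In E12.5 FBs *Col1a2* was at 10.23, 10.10 and 10.24 at 0 h, 10.82, 10.83 and 10.91 after 1 h, and 11.53, 11.41 and 11.30 after 3 h, with no overlap between times. The rise at 3 h was 1.22 (2.33-fold, adjusted p = 5.32e-05). Type I chains were also higher in E12.5 than in E10.5 FBs at 0 h, by 0.94 for *Col1a1* and 0.59 for *Col1a2*. The interaction at 3 h was -0.48 for *Col1a1* and -0.51 for *Col1a2*, and neither was called.

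*Col3a1*, the type III chain of reticular fibres in soft connective tissue, was moved by E12.5 culture. It was at 9.06, 9.05 and 9.29 in E12.5 FBs at 0 h, 9.99, 9.97 and 9.93 after 1 h, and 10.24, 10.12 and 10.14 after 3 h. In E10.5 FBs it was at 9.07, 8.71 and 8.79 at 0 h and at 9.33, 8.67 and 9.31 after 3 h, so the groups overlapped. The rise in E12.5 FBs was 0.83 ± 0.15 (SE, adjusted p = 0.00774) at 1 h and 1.03 (2.05-fold, adjusted p = 0.000157) at 3 h. In E10.5 FBs the change was 0.25 at 3 h (adjusted p = 0.388), and the difference between stages was called at 3 h (-0.79 ± 0.22, adjusted p = 0.0242). That call was lost in 4 of 12 fits that left out 1 array, with values of -0.90 to -0.57. *Col5a2*, whose gene lies 24.6 kb from *Col3a1* on chromosome 1, rose by 0.79 in E12.5 FBs at 3 h (adjusted p = 0.00356) and was 0.64 higher in E12.5 than in E10.5 FBs at 0 h, a call lost in 2 of 6 fits with 1 array left out.

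*Col5a1* encodes the main type V chain, which is known to nucleate type I fibrils. The E12.5 arrays were at 7.77, 7.42 and 7.70 at 0 h and at 8.47, 8.32 and 8.22 after 3 h, with no overlap, a rise of 0.70 (1.63-fold, adjusted p = 0.00341). In E10.5 FBs it went from 7.13, 6.88 and 6.80 at 0 h to 7.62, 6.93 and 7.47 after 3 h, an overlapping and uncalled change of 0.40. The third type V chain, *Col5a3*, rose by 0.25 in E12.5 FBs at 3 h (adjusted p = 0.0478), a call that 4 of 6 fits with 1 array left out did not keep. Of the chains linked to cartilage, *Col11a1* was 0.83 higher at E12.5 at 0 h and 0.75 at 3 h, *Col2a1* was 0.33 higher at 0 h without a call and 0.54 at 3 h with one, lost in 2 of 6 fits with 1 array left out. *Col11a2* was called only at 3 h (0.32), and that call was lost in 3 of 6 such fits and in 11 of 19 alternatives in all, with 0.10 after shifting arrays to a common median and 0.02 after quantile normalization. *Col2a1*, the chain of cartilage fibrils, was at 9.48, 8.99 and 8.83 in E12.5 FBs at 0 h, 8.65, 8.77 and 8.54 after 1 h, and 9.67, 9.17 and 9.29 after 3 h, and neither change from 0 h was called. *Col27a1*, a cartilage chain, rose by 0.41 in E12.5 culture at 3 h, a call lost in 5 of 6 fits with 1 array left out, and differed in its change between stages by -0.69 (adjusted p = 0.0256).

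*Col24a1*, a minor fibrillar chain of bone, was among the dimmest of the chains. In E10.5 FBs it was at 3.45, 3.64 and 3.66 at 0 h, 4.11, 4.09 and 4.14 after 1 h, 3.71, 3.98 and 4.15 after 3 h, and 3.84, 4.12 and 4.20 after 6 h. No cultured array lay at or below those at 0 h. The change at 1 h was 0.53 (1.44-fold, adjusted p = 0.0497), and 6 of 6 fits that left out 1 array lost the call. In E12.5 FBs at 0 h *Col24a1* was at 4.74, 4.60 and 4.54, which was 1.04 above E10.5 (adjusted p = 3.79e-05). By type, 2, 2 and 1 of the 11 fibrillar chains rose in E10.5 culture at 1, 3 and 6 h, 3 and 7 rose in E12.5 culture at 1 and 3 h, and 6 at 0 h and 10 at 3 h were higher in E12.5 than in E10.5 FBs. By limma 0 of the 11 were called lower in culture or at E12.5, although *Col2a1* at 1 h of E12.5 culture (-0.44) and *Col5a3* at E12.5 at 0 h (-0.20) were lower at an unadjusted p under 0.05. *Col5a3* and *Col11a2* were called lower at E12.5 at 0 h after shifting arrays to a common median and after quantile normalization.

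The FACIT chain *Col12a1* had the largest rise of the 39 chains at each time of E10.5 culture, and *Col14a1* came next at 6 h. Types XII and XIV collagen sit on fibrils of dense connective tissue such as tendon and dermis. *Col12a1* was at 7.19, 7.19 and 7.15 in E10.5 FBs at 0 h, 8.31, 8.86 and 8.30 after 1 h, 8.54, 7.73 and 8.57 after 3 h, and 9.04, 8.46 and 8.64 after 6 h. The 0 h arrays lay within 0.05 of each other, below every cultured array. The rise was 1.32 ± 0.20 (SE, 2.49-fold, adjusted p = 0.00138) at 1 h, 1.11 (2.15-fold, adjusted p = 0.00443) at 3 h and 1.54 (2.91-fold, adjusted p = 8.9e-05) at 6 h. In E12.5 FBs *Col12a1* was at 8.96, 8.78 and 9.07 at 0 h, 9.18, 9.57 and 9.47 after 1 h, and 9.44, 9.37 and 9.38 after 3 h. The E12.5 change was 0.47 at 1 h and 0.46 at 3 h, neither called, and the difference between stages was 0.84 at 1 h (adjusted p = 0.252) and 0.65 at 3 h (adjusted p = 0.141). With the 3 arrays high in placenta and decidua markers left out, the E10.5 rise was 1.31 at 1 h and 1.66 at 6 h, both called, and 1.09 at 3 h, not called. E10.5 FBs at 0 h were then represented by 1 array, which was assumed to vary like the other groups. That array had a placenta and decidua marker mean of 3.73, above every array at 1 and 3 h. With the marker mean as a covariate the rise was 1.06 at 1 h and 0.86 at 3 h, neither called, and 1.47 at 6 h, which was called.

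*Col14a1* was called in E10.5 culture only at 6 h. It was at 6.13, 6.23 and 5.82 at 0 h, 6.92, 6.76 and 6.39 after 1 h, 6.72, 6.30 and 6.90 after 3 h, and 7.18, 7.71 and 7.36 after 6 h. The 6 h arrays lay above all the others of that stage. The rise was 0.63 at 1 h (adjusted p = 0.0779), 0.58 at 3 h (adjusted p = 0.0957) and 1.36 at 6 h (2.56-fold, adjusted p = 0.000169), and the step from 3 to 6 h was 0.78 (adjusted p = 0.0409). That step was the only call among the chains from 3 to 6 h, and 4 of 6 fits with 1 array left out did not keep it (0.61 to 0.91). In E12.5 FBs *Col14a1* was at 7.85, 7.84 and 8.43 at 0 h, 9.01, 8.83 and 8.77 after 1 h, and 8.78, 8.78 and 8.66 after 3 h. All cultured arrays lay above those at 0 h, by 0.83 at 1 h (adjusted p = 0.0303, lost in 5 of 6 fits with 1 array left out) and 0.70 at 3 h (adjusted p = 0.0111, lost in 2 of 6). The stage difference at 0 h was 1.98 ± 0.19 (SE, 3.95-fold, adjusted p = 7.62e-07).

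Beside these E10.5 rises, markers of coelomic mesothelium, the lining of the body wall next to the limb, moved as well. Of 14 such genes 8 rose at each of 1, 3 and 6 h of E10.5 culture (2.79%, 3.23% and 3.89% of all genes), and *Upk3b* went from 6.34, 6.72 and 6.70 at 0 h to 11.01, 9.96 and 9.65 after 6 h. *Wt1* was at 6.85, 8.43 and 7.995 at 0 h and between 8.58 and 9.67 on the 9 cultured arrays, while *Msln* stayed between 4.24 and 5.28. In E12.5 culture the list mean moved from 6.82 to 6.95 at 0 h to 7.28 to 7.61 at 3 h. Skeletal muscle markers rose in 4 of 9 genes and neuronal markers in 3 of 9 at 1 h in E10.5 FBs. There the neuronal mean of replicate 1 stood apart at 9.96, against 6.77 and 6.91 in replicates 2 and 3 and 5.72 to 5.99 at 0 h, and its Schwann and neural crest mean was 8.15, against 7.68 and 7.56. The mean of the 7 forelimb genes was 10.44 to 10.57 in E10.5 FBs at 0 h, 9.52 to 10.32 after 1 h, 9.96 to 10.26 after 3 h and 9.07 to 9.44 after 6 h, so no cultured array reached those at 0 h. The part of these cells in the collagen values was not tested, and in bulk tissue a change in the number of cells of a type and in RNA per cell cannot be told apart.

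**Figure D3:**
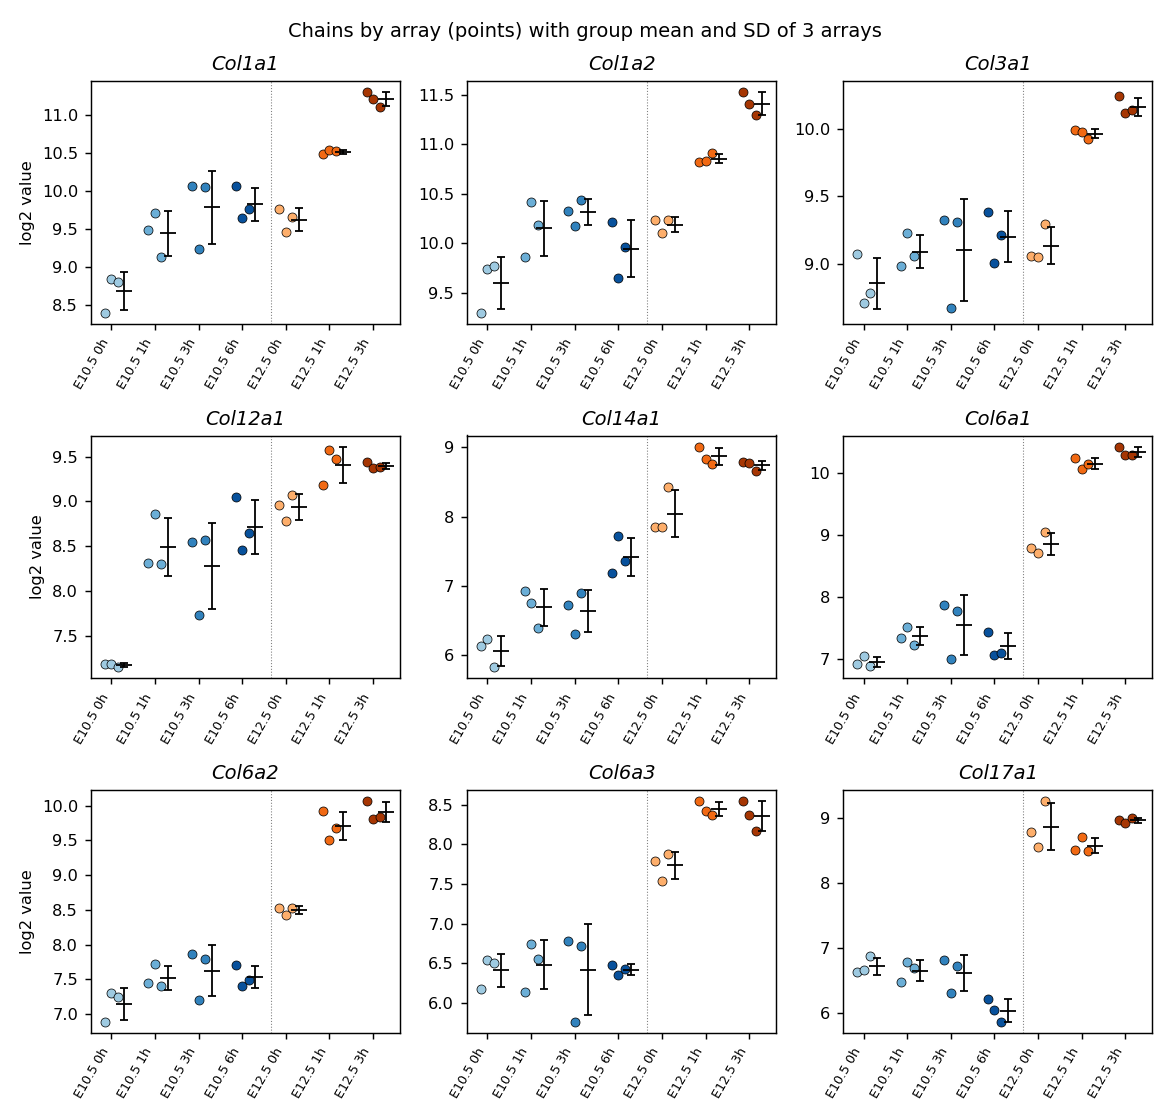
Log2 value on each array (points) with the group mean and SD of 3 arrays (bars) for 9 collagen chains, with the 7 groups on the horizontal axis. Col12a1 was at 7.15 to 7.19 in E10.5 FBs at 0 h and at 7.73 to 9.04 in culture, Col6a1 at 6.89 to 7.88 in all E10.5 FBs and at 10.07 to 10.43 in E12.5 culture, and Col17a1 at 5.87 to 6.87 against 8.49 to 9.25.

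The type IX chains *Col9a1*, *Col9a2* and *Col9a3*, which coat cartilage fibrils, were higher in E12.5 than in E10.5 FBs and were not called in culture. *Col9a1* was at 7.46, 7.53 and 7.99 in E10.5 FBs at 0 h and at 9.39, 9.18 and 8.83 in E12.5 FBs at 0 h, a difference of 1.48 ± 0.21 (SE, 2.78-fold, adjusted p = 4.65e-05). *Col9a2* was 0.91 higher (adjusted p = 0.000545) and *Col9a3* 0.82 higher (adjusted p = 0.00471). In E12.5 culture *Col9a1* was at 8.35, 8.68 and 8.27 after 1 h and 8.95, 8.42 and 8.38 after 3 h, changes of -0.70 (adjusted p = 0.1) and -0.55 (adjusted p = 0.0607) that did not pass. Of 12 cartilage markers that are not collagens, 8 were higher and 1 lower in E12.5 than in E10.5 FBs at 0 h (19.7% and 7.39% of all genes). In E12.5 culture 1 of them fell at 1 h and 3 at 3 h, against 0.828% and 17.6% of all genes. Of the other FACIT chains, *Col16a1* rose by 0.45 in E12.5 FBs at 3 h (adjusted p = 0.0197, lost in 3 of 6 fits with 1 array left out) with an interaction of -0.60 (adjusted p = 0.0458, lost in 9 of 12), and *Col20a1* was called nowhere, with values from 6.65 to 8.37.

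The beaded-filament chains of type VI collagen, a pericellular collagen abundant in muscle connective tissue and cartilage, rose in E12.5 culture, and *Col6a1* had the largest stage difference of all chains at 3 h. *Col6a1*, *Col6a2* and *Col6a3* form its usual trimer. *Col6a1* was at 6.92, 7.05 and 6.89 in E10.5 FBs at 0 h, 7.35, 7.52 and 7.24 after 1 h, 7.88, 7.004 and 7.78 after 3 h, and 7.45, 7.07 and 7.10 after 6 h. In E12.5 FBs it was at 8.80, 8.71 and 9.06 at 0 h, 10.25, 10.07 and 10.15 after 1 h, and 10.43, 10.29 and 10.29 after 3 h. The stages did not overlap at any time, and neither did 0 h and culture in E12.5 FBs. The difference between stages was 1.90 ± 0.18 (SE, 3.74-fold, adjusted p = 4.63e-07) at 0 h and 2.78 (6.88-fold, adjusted p = 1.13e-08) at 3 h. The rise in E12.5 culture was 1.30 (2.46-fold, adjusted p = 0.000615) at 1 h and 1.48 (2.79-fold, adjusted p = 3.22e-05) at 3 h, and in E10.5 culture changes of 0.41, 0.60 and 0.25 at 1, 3 and 6 h were not called.

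*Col6a2* moved like *Col6a1*. *Col6a2* was at 6.89, 7.30 and 7.25 in E10.5 FBs at 0 h and 7.87, 7.20 and 7.80 after 3 h, and at 8.53, 8.43 and 8.52 in E12.5 FBs at 0 h, 9.92, 9.51 and 9.68 after 1 h, and 10.06, 9.81 and 9.84 after 3 h. It was 1.34 higher in E12.5 FBs at 0 h (2.54-fold, adjusted p = 9.9e-06) and rose in E12.5 culture by 1.21 at 1 h (adjusted p = 0.000648) and 1.41 at 3 h (2.66-fold, adjusted p = 2.82e-05). *Col6a3* was at 6.17, 6.55 and 6.51 in E10.5 FBs at 0 h and at 7.78, 7.54 and 7.87, 8.54, 8.41 and 8.37, and 8.54, 8.36 and 8.16 in E12.5 FBs at 0, 1 and 3 h. Here too the stages did not overlap, with a difference of 1.32 at 0 h (adjusted p = 0.00018). Its rise of 0.62 at 3 h of E12.5 culture (adjusted p = 0.0383) was kept in 1 of 6 fits with 1 array left out, and 0.71 at 1 h was not called (adjusted p = 0.105). *Col6a6*, a further type VI chain, was dim at 5.05, 5.01 and 5.13 in E12.5 FBs at 0 h, 5.98, 5.55 and 5.92 after 1 h, and 6.00, 5.81 and 5.83 after 3 h. It was at 5.33, 5.07 and 5.12 in E10.5 FBs at 0 h and at 4.90, 4.68 and 4.84 after 3 h, so that the stages moved apart. The change at 3 h differed between stages by -0.88 for *Col6a1* (adjusted p = 0.0271, lost in 5 of 12 fits with 1 array left out), -0.94 for *Col6a2* (adjusted p = 0.0157), -1.19 for *Col6a6* (adjusted p = 0.00514) and -0.61 for *Col6a3* (adjusted p = 0.187).

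*Col6a1* and *Col6a2* are neighbours on chromosome 10, with 85.2 kb between them. Their start regions (RefSeq, GRCm38.p6, minus strand, 250 bases before to 50 after the start) are shown because these chains rose together in E12.5 culture, with capitals for matches on either strand to the CCAAT box (CCAAT), the GC box (GGGCGG) or the TATA box (TATAAA). The window of *Col6a1* is chr10:76725995-76726294 and that of the outer *Col6a2* start is chr10:76623581-76623880.
Col6a1: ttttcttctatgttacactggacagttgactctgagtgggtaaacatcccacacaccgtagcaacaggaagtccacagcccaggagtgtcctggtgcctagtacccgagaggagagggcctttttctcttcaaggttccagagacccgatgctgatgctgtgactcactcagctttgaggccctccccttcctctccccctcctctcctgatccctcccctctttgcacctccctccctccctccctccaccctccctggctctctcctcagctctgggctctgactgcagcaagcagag
Col6a2: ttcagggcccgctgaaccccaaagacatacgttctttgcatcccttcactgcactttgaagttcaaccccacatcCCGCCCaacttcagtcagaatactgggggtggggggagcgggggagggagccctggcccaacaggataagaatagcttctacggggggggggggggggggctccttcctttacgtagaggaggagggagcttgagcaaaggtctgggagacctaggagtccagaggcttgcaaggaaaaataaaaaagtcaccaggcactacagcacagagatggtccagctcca
The *Col6a1* window held 0 of the 3 motifs and this *Col6a2* window 1 GC box, while the window of the inner *Col6a2* start, chr10:76623355-76623654, held 3 GC boxes. Of the 39 chains 31 had a window, with 34 windows in all. A CCAAT box was found in 35.3% of these and in 37.4% of all 32851 mouse windows, a GC box in 61.8% and 35.7%, and a TATA box in 14.7% and 13.6%.

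Among the network-forming chains, *Col8a1* and *Col8a2* make the type VIII collagen of Descemet's membrane and vessel walls, and *Col10a1* marks hypertrophic cartilage. *Col8a1* was at 5.22, 5.16 and 4.66 in E10.5 FBs at 0 h and at 6.88, 6.52 and 7.10 in E12.5 FBs at 0 h, without overlap. That was a difference of 1.82 ± 0.20 (SE, 3.54-fold, adjusted p = 3.09e-06), and at 3 h it was 2.14. *Col8a1* was at 7.74, 7.30 and 7.62 in E12.5 FBs at 3 h, a rise of 0.72 (adjusted p = 0.0128, lost in 2 of 6 fits with 1 array left out). *Col8a2* was at 5.76, 5.80 and 5.73 in E10.5 and 6.45, 6.12 and 6.27 in E12.5 FBs at 0 h, and at 6.995, 6.73 and 6.77 in E12.5 FBs at 3 h. The stages did not overlap at 0 h (0.52, adjusted p = 0.0369, lost in 5 of 6 fits with 1 array left out), and the rise at 3 h was 0.55 (adjusted p = 0.0282, lost in 3 of 6). *Col10a1* was at 5.66, 4.24 and 4.09 in E12.5 FBs at 0 h against 3.68, 3.53 and 3.50 in E10.5 FBs, and replicate 1 alone was above 5. The difference of 1.09 (adjusted p = 0.0259) was 0.59 without that array and not called, and in all 3 of 6 such fits lost the call.

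The basement membrane chains *Col4a1* and *Col4a2* were called lower in E12.5 than in E10.5 FBs at 0 h, as were *Col18a1*, *Col23a1* and *Col26a1* of other types. In E10.5 culture, a fall was called for *Col4a1* at 1, 3 and 6 h and for *Col4a2* at 6 h only. With placenta and decidua markers as a covariate, the falls and 0 h differences of *Col4a1* and *Col4a2* were not called (given below). *Col4a1* and *Col4a2* form the common type IV trimer of nearly all basement membranes. *Col4a1* was at 9.08, 9.51 and 9.36 in E10.5 FBs at 0 h, 8.65, 8.76 and 8.86 after 1 h, 8.89, 8.57 and 8.91 after 3 h, and 8.74, 8.997 and 8.63 after 6 h. The E12.5 arrays were at 8.86, 8.43 and 8.66 at 0 h, 8.81, 8.92 and 8.83 after 1 h, and 9.42, 9.07 and 9.10 after 3 h. Thus every E10.5 array at 0 h lay above every cultured E10.5 array, and in E12.5 FBs the 3 h arrays lay above those at 0 h. The fall in E10.5 culture was -0.56 ± 0.14 (SE, adjusted p = 0.0351) at 1 h, -0.53 after 3 h (adjusted p = 0.0423) and -0.53 after 6 h (adjusted p = 0.0331), and the rise in E12.5 culture was 0.55 at 3 h (1.46-fold, adjusted p = 0.00809). Leaving out 1 array ended the E10.5 call in 4, 5 and 4 of 6 fits at 1, 3 and 6 h, and the E12.5 call in 1 of 6.

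*Col4a2* was at 8.33, 8.84 and 8.65 in E10.5 FBs at 0 h, 8.18, 8.35 and 8.27 after 1 h, 8.45, 7.92 and 8.30 after 3 h, and 8.19, 8.06 and 7.64 after 6 h. In E12.5 FBs it was at 8.04, 7.40 and 7.90 at 0 h, 7.98, 8.19 and 8.02 after 1 h, and 8.83, 8.58 and 8.54 after 3 h. The E10.5 groups at 1 and 3 h overlapped with 0 h and the 6 h group did not. The fall was called at 6 h (-0.64, 1.56-fold, adjusted p = 0.0406, lost in 4 of 6 fits with 1 array left out), and the rise in E12.5 culture at 3 h was 0.87 (1.82-fold, adjusted p = 0.00194). The E12.5 minus E10.5 difference at 0 h was -0.67 for *Col4a1* (adjusted p = 0.00196) and -0.83 for *Col4a2* (adjusted p = 0.00255). The change at 3 h differed between stages by -1.08 ± 0.20 for *Col4a1* (adjusted p = 0.00393) and by -1.25 ± 0.26 for *Col4a2* (adjusted p = 0.00638), the interaction of largest size among the 39 chains.

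The E10.5 arrays at 0 h with the highest *Col4a1* and *Col4a2*, replicates 2 and 3, were those high in placenta and decidua markers. Without the 3 such arrays the E10.5 fall of *Col4a1* was -0.33, -0.29 and -0.40 at 1, 3 and 6 h and that of *Col4a2* at 6 h was -0.42, with 0 of these calls kept and 1 array left at E10.5 0 h. The stage difference at 0 h was then -0.44 for *Col4a1* and -0.55 for *Col4a2*, neither called. The interaction at 3 h was -0.84 for *Col4a1*, still called, and -0.98 for *Col4a2*, not called, and with the marker mean as a covariate it was -0.79 and -1.03, both called. That covariate left the E10.5 falls and the 0 h stage differences of both chains uncalled. The rises in E12.5 culture do not involve these arrays. Markers of endothelium, whose vessels carry a basement membrane, rose in 4 of 12 genes at 3 h in both E10.5 and E12.5 culture (3.23% and 9.94% of all genes). Their part was not tested.

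*Col4a1* and *Col4a2* are transcribed in opposite directions from start sites 21 bases apart, on chromosome 8. Their windows (RefSeq, GRCm38.p6), chr8:11312777-11313076 on the minus strand and chr8:11312555-11312854 on the plus strand, share 78 bases. They are shown because both chains rose in E12.5 culture and had called falls in E10.5 culture. Those falls were not called with the placenta and decidua marker mean as a covariate. Capitals mark the motifs named above.
Col4a1: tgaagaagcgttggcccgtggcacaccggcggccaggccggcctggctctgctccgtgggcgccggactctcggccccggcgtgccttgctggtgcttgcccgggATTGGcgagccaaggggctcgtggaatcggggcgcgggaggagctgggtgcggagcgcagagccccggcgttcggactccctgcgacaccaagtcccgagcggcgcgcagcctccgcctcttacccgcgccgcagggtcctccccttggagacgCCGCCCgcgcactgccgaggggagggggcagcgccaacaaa
Col4a2: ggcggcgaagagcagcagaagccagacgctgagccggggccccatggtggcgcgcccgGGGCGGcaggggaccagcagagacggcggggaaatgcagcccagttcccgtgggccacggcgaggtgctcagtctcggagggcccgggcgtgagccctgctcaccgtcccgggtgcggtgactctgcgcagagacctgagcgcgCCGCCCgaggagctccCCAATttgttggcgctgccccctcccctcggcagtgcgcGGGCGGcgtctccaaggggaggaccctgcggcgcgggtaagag
The *Col4a1* window held 1 CCAAT box and 1 GC box, and that of *Col4a2* held 1 and 3. In the shared stretch 1 GC box is counted for both genes and no CCAAT box is, and a TATA box was found in neither. A match describes letters, not binding.

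**Figure D4:**
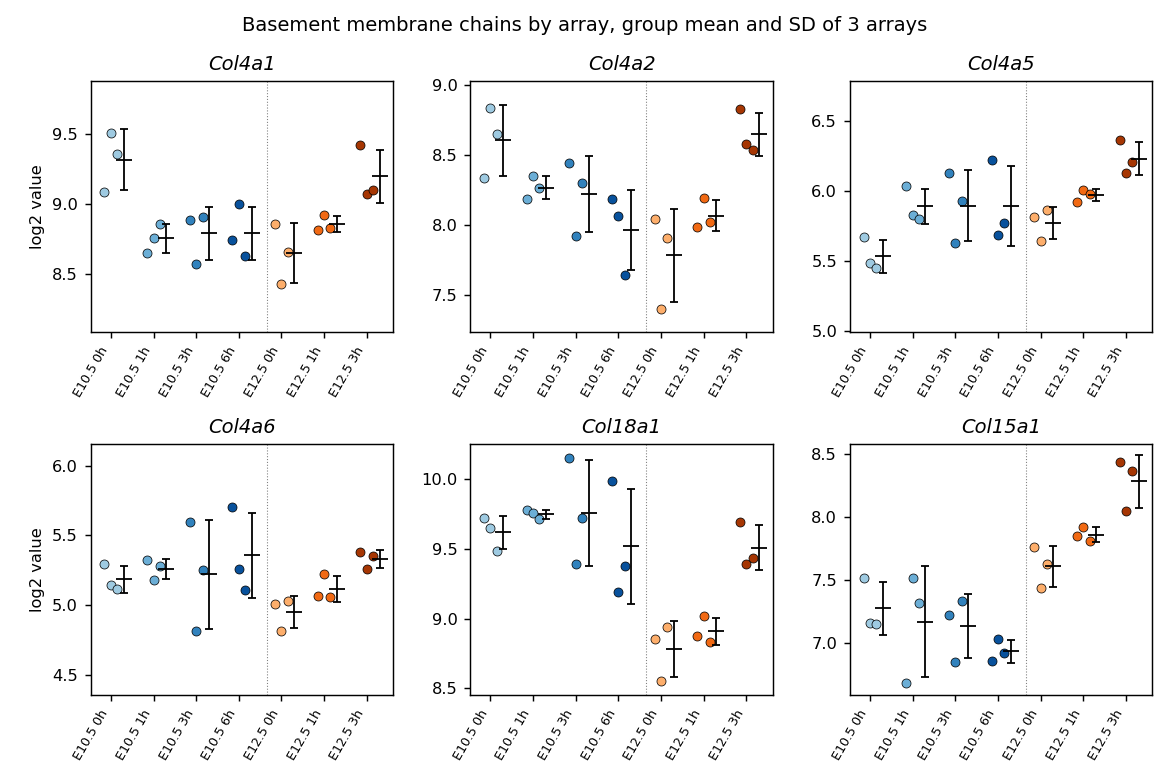
Log2 value on each array (points) with the group mean and SD of 3 arrays (bars) for type IV chains and the multiplexins Col15a1 and Col18a1 in the 7 groups. Col4a1 and Col4a2 were higher in E10.5 FBs at 0 h (9.08 to 9.51 and 8.33 to 8.84) than in E12.5 FBs at 0 h (8.43 to 8.86 and 7.40 to 8.04), and both rose in E12.5 culture.

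The tissue-restricted type IV chains behaved differently. *Col4a3* and *Col4a4*, chains of the kidney filter, stayed between 4.87 and 5.37 on all arrays and were not called in any comparison. *Col4a5* rose by 0.46 in E12.5 FBs at 3 h (adjusted p = 0.0209, lost in 2 of 6 fits with 1 array left out), and its partner *Col4a6*, transcribed from a start 1343 bases away on chromosome X, had an uncalled change of 0.38. Of the 6 type IV chains 3 rose in E12.5 culture at 3 h. The multiplexins, basement membrane proteoglycan collagens, also moved. *Col18a1* was at 9.72, 9.65 and 9.49 in E10.5 FBs at 0 h, and at 8.85, 8.55 and 8.94 at 0 h, 8.88, 9.02 and 8.83 after 1 h, and 9.69, 9.39 and 9.44 after 3 h in E12.5 FBs. Its E12.5 arrays lay below the E10.5 arrays at 0 h and its 3 h arrays overlapped them. The stage difference at 0 h was -0.84 (1.79-fold, adjusted p = 0.00295), and the rise in E12.5 culture at 3 h was 0.73 (adjusted p = 0.00797). *Col15a1* rose by 0.67 there (adjusted p = 0.0103), with an interaction of -0.82 (adjusted p = 0.0434) that 10 of 12 fits with 1 array left out did not keep.

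*Col17a1* had the largest stage difference at 0 h. It encodes the transmembrane collagen of hemidesmosomes, which anchor basal epidermal cells. It was at 6.64, 6.66 and 6.87 in E10.5 FBs at 0 h, 6.48, 6.78 and 6.70 after 1 h, 6.81, 6.31 and 6.73 after 3 h, and 6.21, 6.04 and 5.87 after 6 h. The E12.5 arrays were at 8.78, 8.54 and 9.25 at 0 h, 8.51, 8.70 and 8.49 after 1 h, and 8.96, 8.92 and 8.997 after 3 h. The stages did not overlap at any time, with a difference of 2.14 ± 0.16 at 0 h (SE, 4.40-fold, adjusted p = 5.01e-08) and 2.34 at 3 h (5.07-fold, adjusted p = 3.32e-08). At 6 h of E10.5 culture *Col17a1* fell by 0.68 (1.60-fold, adjusted p = 0.0152), a call lost without replicate 3 of 0 h or of 6 h, and without the 3 arrays high in placenta and decidua markers (-0.60). Ectodermal markers fell at that time in 6 of 10 genes (2.87% of all genes), and from 3 to 6 h 9 of 10 fell (1.62% of all genes). Their mean was 7.72 to 8.44 at 6 h against 8.96 to 9.01 at 0 h. Between the stages at 0 h, 3 ectodermal markers were higher and 3 lower in E12.5 FBs (19.7% and 7.39% of all genes). The part of ectodermal RNA was not tested.

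Of the other transmembrane chains, *Col23a1* was at 8.41, 8.64 and 8.50 in E10.5 FBs at 0 h and 8.58, 8.13 and 8.64 after 3 h, and at 8.09, 7.74 and 8.05 in E12.5 FBs at 0 h and 9.16, 8.81 and 8.84 after 3 h. It was lower at E12.5 at 0 h (-0.55, adjusted p = 0.025, lost in 3 of 6 fits with 1 array left out), rose in E12.5 culture by 0.98 at 3 h (1.97-fold, adjusted p = 0.000608) and was then higher than in E10.5 FBs (0.49, adjusted p = 0.0432, lost in 4 of 6 fits with 1 array left out). The interaction was -1.04 (adjusted p = 0.0125). Without the 3 arrays high in placenta and decidua markers the 0 h difference was -0.45 and the interaction -0.94, neither called, and with the marker mean as a covariate the 0 h difference was -0.50 and not called. *Col25a1*, a collagen required by motor axons to enter muscle, was 0.94 higher at E12.5 at both 0 h and 3 h. *Col13a1*, a collagen of the neuromuscular junction, was not called in any comparison. The anchoring fibril chain *Col7a1*, which ties the epidermal basement membrane to the dermis, was 0.63 higher in E12.5 FBs at 3 h (adjusted p = 0.00387) and 0.23 higher without a call at 0 h.

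*Col26a1*, a chain outside the main types, had called stage differences of opposite sign at 0 and 3 h. So had *Col23a1* and *Col4a1*, but their 3 h calls were lost in 12 and 11 of 19 alternatives. Their 0 h calls were lost with the placenta and decidua marker mean as a covariate. *Col26a1* was at 10.63, 10.64 and 10.51 in E10.5 FBs at 0 h, 10.57, 10.78 and 10.61 after 1 h, 10.74, 10.46 and 10.75 after 3 h, and 10.77, 10.27 and 10.19 after 6 h. In E12.5 FBs it was at 10.24, 10.12 and 10.21 at 0 h, 10.77, 10.84 and 10.87 after 1 h, and 11.51, 11.28 and 11.34 after 3 h. The E12.5 arrays were below all E10.5 arrays at 0 h and above all of them at 3 h. The stage difference was -0.40 ± 0.13 (SE, adjusted p = 0.0264) at 0 h and 0.73 (1.65-fold, adjusted p = 0.000478) at 3 h, and the rise in E12.5 culture was 0.63 at 1 h and 1.18 at 3 h (2.27-fold, adjusted p = 1.42e-05). The 0 h difference lost its call in 4 of 6 fits with 1 array left out and without the 3 arrays high in placenta and decidua markers (-0.44), and the 1 h rise in 4 of 6. The interaction at 3 h was -1.13 (adjusted p = 0.00159, kept in 24 of 24 alternatives), the lowest adjusted p among the chains.

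**Figure D5:**
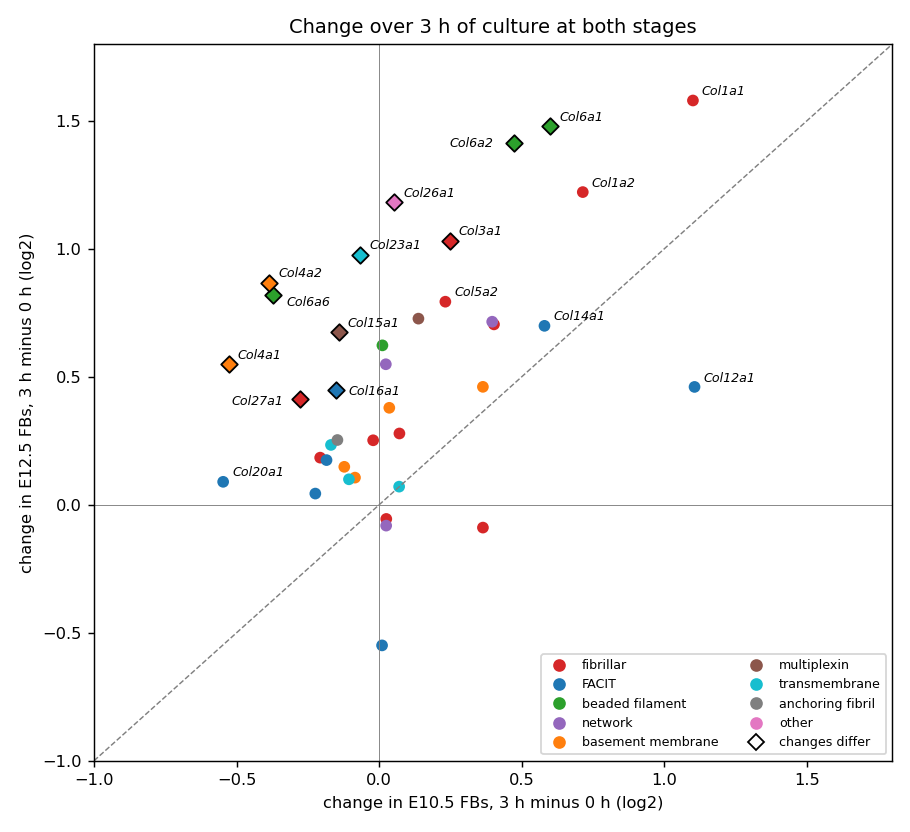
Change from 0 to 3 h of culture in E10.5 FBs (horizontal axis, log2) against that in E12.5 FBs (vertical axis, log2) for the 39 chains, coloured by type, with diamonds for the 11 chains whose changes differed at an adjusted p under 0.05 and a dashed line of equal change. All diamonds lie above the line, from Col16a1 (-0.60) to Col4a2 (-1.25), while Col12a1 lies below it (0.65, not called).

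Genes that act on collagens were read from lists of their modifying enzymes and chaperones (20 of 23 measured), processing and crosslinking enzymes (12 of 17) and receptors (9 of 12). Their calls were not checked without the 3 arrays high in placenta and decidua markers, with those markers as a covariate, or with 1 array left out. The changes from E10.5 at 0 h and the stage differences at 0 h involve such arrays. Among the first, which hydroxylate, glycosylate and fold the chains, 3, 6 and 3 rose in E10.5 culture at 1, 3 and 6 h, 1 and 7 rose in E12.5 culture at 1 and 3 h, and 12 were higher and 1 lower in E12.5 than in E10.5 FBs at 0 h. Of all genes 2.79%, 3.23% and 3.89% rose at these E10.5 times, 1.29% and 9.94% at the E12.5 times, and 19.7% were higher and 7.39% lower between the stages. *P4ha3*, a prolyl 4-hydroxylase subunit, was 3.18 higher in E12.5 FBs at 0 h (9.09-fold, adjusted p = 3.88e-07) and rose by 1.32 and 1.49 at 1 and 3 h of E10.5 culture. *P3h2* and *Creb3l1* had called interactions at 3 h of the same sign as the 11 chains, and 3 other members had them of the opposite sign. Of all genes 4.83% and 9.43% had called interactions of these signs. *P3h2*, a prolyl 3-hydroxylase known to act on type IV collagen, rose by 1.42 in E12.5 FBs at 3 h (2.67-fold, adjusted p = 2.07e-06), with an interaction of -1.68 (adjusted p = 4.42e-05), and *Creb3l1*, a transcription factor of type I collagen genes, rose by 2.10 (4.28-fold, adjusted p = 0.000276), with an interaction of -1.87 (adjusted p = 0.017). *Plod2*, a lysyl hydroxylase, and *P4ha1* rose in E10.5 culture at 3 h, by 0.84 and 0.76, and from 3 to 6 h *Plod2* fell by 0.52 and *P4ha1* fell by 1.07.

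Of the crosslinking enzymes, the lysyl oxidases *Loxl1* and *Loxl2* rose in E10.5 culture beside type I collagen. *Loxl1* rose by 0.83, 1.12 and 1.27 at 1, 3 and 6 h (adjusted p = 0.00565, 0.000365 and 4.19e-05) and *Loxl2* by 0.80, 0.96 and 1.07. They were the 2 called members of that list at each time, where 2.79%, 3.23% and 3.89% of all genes rose. In E12.5 culture *Loxl2* rose by 0.70 at 3 h and *Loxl1* was not called, with an interaction of 0.96 (adjusted p = 0.0113). At 0 h, 7 members were higher and 1 lower in E12.5 FBs (19.7% and 7.39% of all genes), with *Loxl1* higher by 1.90 and the transglutaminase *Tgm2* lower, with a difference of -2.90 (adjusted p = 0.0012). The part of placenta and decidua RNA on the E10.5 arrays in these differences was not tested. Of the receptors, 4 at 0 h and 5 at 3 h were higher in E12.5 FBs (19.7% and 17.7% of all genes), led by *Itga11*, the integrin chain for fibrillar collagen, at 2.44 and 2.58 (adjusted p = 1.02e-07 and 8.33e-08). *Ddr1*, a collagen receptor kinase, rose by 0.82 and 0.86 at 1 and 3 h of E10.5 culture and by 1.11 at 3 h of E12.5 culture (adjusted p = 0.0498, 0.0362 and 0.0015). *Ddr2* rose by 0.64 in E10.5 culture at 6 h and by 0.81 in E12.5 culture at 3 h. The beta chain *Itgb1* rose by 0.37 in E10.5 and fell by 0.29 in E12.5 culture at 3 h, with an interaction of 0.66 (adjusted p = 0.0023).

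The stage comparison holds other tissues than mesenchyme. Skeletal muscle markers were higher in E12.5 FBs at 0 h in 7 of 9 genes, macrophage markers in 7 of 9, and Schwann and neural crest markers in 4 of 5, beside the 8 of 12 cartilage markers, where 19.7% of all genes were higher. Cell makeup and expression per cell cannot be told apart for the 19 chains that were higher there. Without the 3 arrays high in placenta and decidua markers, or with those markers as a covariate, 15 chains were called between the stages at 0 h in place of 24. Left out, the arrays took the calls of *Col10a1* (0.98), *Col11a1* (0.75), *Col5a1* (0.50), *Col5a2* (0.82), *Col8a2* (0.52), *Col4a1*, *Col4a2*, *Col23a1* and *Col26a1*, all with the same sign as before, and the covariate took those of the same chains other than *Col26a1* and that of *Col1a2* (0.60). In E10.5 culture, leaving the arrays out also took the 1 h calls of *Col1a1* (1.05) and *Col24a1* (0.66) and the step of *Col14a1* from 3 to 6 h (0.63), and the covariate took these 3 calls, the 3 h call of *Col1a2* (0.72) and, in E12.5 culture, the 3 h call of *Col5a3* (0.24). Of the 11 interactions at 3 h, those of *Col3a1*, *Col4a1*, *Col6a6* and *Col26a1* were still called without the arrays, while those of *Col6a1* (-0.84), *Col6a2* (-0.68), *Col15a1* (-1.05), *Col16a1* (-0.67), *Col23a1*, *Col27a1* (-0.72) and *Col4a2* were not, and the covariate took those of *Col6a2* (-0.89), *Col15a1* (-0.89) and *Col16a1* (-0.66). *Col1a1*, *Col1a2*, *Col5a1*, *Col6a1*, *Col6a2*, *Col6a3*, *Col8a2*, *Col12a1*, *Col14a1* and *Col4a1* had been named by the study on these arrays, so their changes are no independent evidence.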

How the data were processed

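Total RNA of FBs was hybridised to 21 exon arrays. The deposited values are log2 signals that the authors made with RMA in Affymetrix Expression Console, per the labels and the study's methods. RMA is a method of background correction, quantile normalization and probe summary. Array medians of the deposited values still ran from 6.00 to 6.60, so the arrays did not share 1 distribution. There were 23332 features, of which 14996 carried 1 gene symbol. For a gene with several features the one with the highest mean was used. Log2 values were fitted with limma 3.58.1 in R 4.3.3, with 1 mean per group over all 21 arrays (14 residual degrees of freedom, lmFit and eBayes), and p-values were adjusted by Benjamini-Hochberg over 14860 genes. There were 10 comparisons: culture times against 0 h at each stage, 6 against 3 h, the stages at 0 and 3 h, and 2 interactions, read as the E10.5 change minus the E12.5 change. Named chains were up to 4 called rises and 4 called falls of largest size per comparison with groups that did not overlap (for interactions, called ones), the chains the study names, and their trimer partners, and from each list of enzymes and receptors up to 4 called genes per comparison. Members, lists and tests were chosen with earlier results of these data known. The number of arrays limits the precision, and no scan date or batch was given in the sources used here. The fit was tested on simulated data with independent normal noise for each gene. These held no array shifts and no placenta and decidua RNA, so that test does not bear on either. Promoter windows are RefSeq's for GRCm38.p6, searched on both strands, and chains without a window were Col1a1, Col2a1, Col4a3, Col5a2, Col9a3, Col12a1, Col14a1 and Col26a1. Alternatives were other scalings, array weights, thresholds, a filter on the 30% dimmest genes, a replicate block, an unpaired two-tailed t-test with pooled variance, the placenta and decidua markers as a covariate or their 3 arrays left out, and each array left out in turn. These alternatives were read for the collagen chains only, not for the enzymes, receptors and cell type markers. The study's methods name a Mann-Whitney unpaired t-test, which can also be read as a rank test. They do not say that it was run on the arrays.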

Additional observations from a re-analysis of the deposited data

Results flagged for a closer look

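The change over 3 h of culture, E10.5 minus E12.5, passed the interaction test of limma (Benjamini-Hochberg adjusted p under 0.05) for 11 collagen chains, all with a lower change in E10.5 FBs. The difference on the log2 scale was -1.25 for Col4a2, -1.19 for Col6a6, -1.13 for Col26a1, -1.08 for Col4a1, -1.04 for Col23a1, -0.94 for Col6a2, -0.88 for Col6a1, -0.82 for Col15a1, -0.79 for Col3a1, -0.69 for Col27a1 and -0.60 for Col16a1. Of these, Col15a1, Col16a1, Col6a1, Col3a1 and Col27a1 lost the call in 10, 9, 5, 4 and 3 of 12 fits with 1 array left out, and the other 6 kept it in each. Without the 3 arrays high in placenta and decidua markers 7 of the 11 were not called, among them Col4a2, Col23a1 and Col6a2 of those 6, and with the marker mean as a covariate Col6a2, Col15a1 and Col16a1 were not.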

How the results depend on the processing

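Of 2117 alternatives to the 110 called changes of single chains, 1758 kept the call, 359 lost it and 0 reversed the direction. The counts of called chains that moved by over 1.5 times are given here, and the cause was not tested. At E10.5 1 h the count of 4 became 10 with array weights, 2 with a fold of at least 1.5, 2 by an unpaired t-test at an unadjusted p under 0.01 and 0 after Benjamini-Hochberg, 0 with the placenta and decidua markers as a covariate, and 2 without the 3 arrays high in them. At 3 h the count of 4 became 8 with quantile normalization, 14 with array weights, 0 by that t-test before and after adjustment, 0 with the covariate, 2 without the 3 arrays, and 9 without the 2 arrays of lowest median, a setting chosen after seeing the data. At 6 h the 6 became 0 by the adjusted t-test. From 3 to 6 h the 1 became 2 with quantile normalization, 6 with array weights, 2 at an unadjusted p under 0.01, and 0 with the replicate block, the t-test before and after adjustment, the covariate, the 3 arrays left out and the 2 arrays left out. At E12.5 1 h the 8 became 14 with array weights and 0 by the adjusted t-test. Between stages at 0 h the 24 became 15 with the covariate and 15 without the 3 arrays, and at 3 h the 30 became 15 and 10 by the t-test before and after adjustment. The interaction at 1 h gave 2 calls with a common median, 3 with quantile normalization, 9 with array weights and 6 at an unadjusted p under 0.01, in place of 0, and that at 3 h gave 4 in place of 11 without the 3 arrays. The t-test has no form for interactions.

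With 1 array left out, counts ranged from 1 to 4 at E10.5 1 h, 2 to 8 at 3 h, 3 to 8 at 6 h and 0 to 3 from 3 to 6 h, from 3 to 6 at E12.5 1 h and 12 to 22 at 3 h, from 20 to 22 between stages at 0 h and 25 to 30 at 3 h, and from 0 to 2 and 6 to 11 for the interactions at 1 and 3 h. At E10.5 1 h the arrays that moved the count were 0 h replicates 1 (2), 2 (1) and 3 (1) and 1 h replicates 1 (2) and 2 (1). At 3 h they were 3 h replicates 2 (8) and 3 (2), at 6 h replicate 3 of 0 h (3) and of 6 h (3), and from 3 to 6 h all but 3 h replicate 3. At E12.5 1 h they were 0 h replicates 1 (3) and 2 (3) and 1 h replicates 1 (3), 2 (5) and 3 (4), and at 3 h it was 0 h replicate 2 (12). For the 1 h interaction it was E10.5 0 h replicate 1 (2), and for that at 3 h E10.5 0 h replicate 2 (7), E12.5 0 h replicates 1 (7) and 2 (6) and E12.5 3 h replicate 1 (7).

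Arrays with the same replicate number deviated together (r above 0.1) in 12 of 63 pairs, so the numbers were not read as pairs. The replicate block kept 101 of the 110 calls.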
